A study of Mus musculus with 12 samples.

Results

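The cytochrome P450 genes of the Cyp2 and Cyp3a families were followed in mouse livers with and without hepatocyte Shp, on 2 diets. Members were all rows of the deposited table whose symbol was Cyp2 or Cyp3 plus a letter and digits, leaving out the Cyp2b genes, Cyp2c70 and names ending in -ps, and this gave 40 of 15846 genes. They comprised 4 Cyp2a, 12 Cyp2c, 7 Cyp2d, 4 Cyp2j and 7 Cyp3a genes and 1 gene each of Cyp2e, Cyp2f, Cyp2r, Cyp2s, Cyp2t and Cyp2u. The Cyp2c genes lie on chromosome 19, the Cyp2d genes on 15, the Cyp2j genes on 4, the Cyp3a genes on 5, the Cyp2a, Cyp2e, Cyp2f, Cyp2r, Cyp2s and Cyp2t genes on 7 and Cyp2u1 on 3.

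RNA was sequenced from livers of 12 C57BL/6 mice aged 5 months, 3 in each of 4 groups. The groups were wild type (WT) on Chow, Shp Hep-/- (KO) on Chow, WT on the HFCF diet and KO on the HFCF diet. The labels give neither the Cre line behind the KO genotype, nor the sex, nor the make-up and length of the HFCF feeding. Libraries held 13967116 to 18324134 counts. Nr0b2, the gene that encodes Shp, was at 22.4 to 53.4 CPM (depth-scaled counts, here with TMM-scaled library sizes) in the 6 WT livers and at 0.21 to 1.01 CPM in the 6 KO livers. Xist was at 0.0708 to 0.945 CPM and the Y-linked Ddx3y at 133 to 166 CPM, in all 12 livers. The 19 hepatocyte markers in the table summed to 79094 to 100756 CPM in every library. Of the WT HFCF libraries, replicate 1 stood apart, since its counts differed from those of replicates 2 and 3 by a chi-square of 32.17 and 34.42 per degree of freedom, and those 2 from each other by 11.21. In comparisons of WT HFCF livers, calls of members that ended, values that moved over 1.5-fold and changed counts over gene lists are given without this library too.

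P450 enzymes of these families are heme proteins of the endoplasmic reticulum that take electrons from the reductase Por and insert oxygen into drugs, steroids, fatty acids and other lipids. In mouse liver most are made by hepatocytes, many of them in the pericentral zone, and several are induced through the nuclear receptors PXR (gene Nr1i2) and CAR (gene Nr1i3) or depend on the hepatocyte factor HNF4A. Shp has no DNA-binding domain and represses other nuclear receptors by binding to them. In bulk tissue, fewer cells of a type and less RNA per cell cannot be told apart.

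Many of these genes arose by local duplication, and some neighbours still share nearly the same promoter. The 250 bases before the start are shown for Cyp2a4 and Cyp2a5 and for Cyp3a25 and Cyp3a59, because each pair is nearly identical here but did not have the same genotype calls, and for Cyp2c29, because it was the member with a called interaction of genotype and diet. Sequences are RefSeq promoters on GRCm38.p6, 5′ to 3′ along the gene. For Cyp2c29 the RefSeq start lies inside the GENCODE gene span given below, which begins further upstream. Capitals mark the nuclear receptor core AGGTCA, the variant core AGTTCA, the HNF4A-type core CAAAGTC and the TATA box TATAAA, each searched on both strands, so that TGACCT and TGAACT are AGGTCA and AGTTCA on the opposite strand.
Cyp2a4, chr7:26306942-26307191, plus strand: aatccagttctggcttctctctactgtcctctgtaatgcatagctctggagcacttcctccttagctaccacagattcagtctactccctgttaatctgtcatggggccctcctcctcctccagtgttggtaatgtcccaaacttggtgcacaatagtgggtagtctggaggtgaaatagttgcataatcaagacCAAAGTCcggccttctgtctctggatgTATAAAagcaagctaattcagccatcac
Cyp2a5, chr7:26835089-26835338, plus strand: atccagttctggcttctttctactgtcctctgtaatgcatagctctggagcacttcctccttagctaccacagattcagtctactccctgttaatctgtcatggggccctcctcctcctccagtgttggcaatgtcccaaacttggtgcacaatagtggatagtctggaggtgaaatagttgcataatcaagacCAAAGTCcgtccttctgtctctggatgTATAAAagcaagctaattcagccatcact
Cyp3a25, chr5:146009618-146009867, minus strand: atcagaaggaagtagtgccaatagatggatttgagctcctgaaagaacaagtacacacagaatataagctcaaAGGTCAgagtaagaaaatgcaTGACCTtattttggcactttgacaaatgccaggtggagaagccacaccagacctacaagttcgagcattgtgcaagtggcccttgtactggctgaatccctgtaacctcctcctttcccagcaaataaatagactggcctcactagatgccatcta
Cyp3a59, chr5:146079008-146079257, plus strand: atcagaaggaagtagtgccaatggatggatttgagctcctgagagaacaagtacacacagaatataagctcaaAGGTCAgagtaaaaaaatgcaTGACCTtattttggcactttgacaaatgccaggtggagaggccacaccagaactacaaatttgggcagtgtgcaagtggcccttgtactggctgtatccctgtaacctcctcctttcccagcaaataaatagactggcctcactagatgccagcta
Cyp2c29, chr19:39286835-39287084, plus strand: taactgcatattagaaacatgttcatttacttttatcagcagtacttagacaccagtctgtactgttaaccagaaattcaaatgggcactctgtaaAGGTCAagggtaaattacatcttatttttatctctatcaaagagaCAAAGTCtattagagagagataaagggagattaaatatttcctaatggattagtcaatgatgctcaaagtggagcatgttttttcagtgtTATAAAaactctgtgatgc

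The Cyp2a4 and Cyp2a5 promoters were identical at 97.6% of 251 aligned columns, and both held CAAAGTC and TATAAA at the same spacing. Those of Cyp3a25 and Cyp3a59 were identical at 94.8% of 251 columns, and both held AGGTCA once on each strand. The Cyp2c29 promoter held the AGGTCA core, the CAAAGTC core and the TATA box, and shared 68.8% with that of its neighbour Cyp2c38, which held only TATAAA of the searched letters. RefSeq promoters were matched to 35 of the 40 members, 37 promoters in all. TATAAA was in 48.6% of these and in 12.4% of all 32851 promoters of the same length, CAAAGTC in 32.4% and 3.84%, AGGTCA in 29.7% and 14%, and AGTTCA in 13.5% and 11.8%. Since members share promoters by descent, these shares describe the family and do not count separate events, and a match of letters does not show a bound site.

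Per length, in the deposited FPKM values, Cyp2e1, which oxidizes ethanol and acetaminophen, ranked first with 6145 ± 204 FPKM (SD, n = 3) in WT chow livers. Cyp3a11, the main hepatic Cyp3a enzyme, was next with 1902 ± 411 FPKM, followed by Cyp2d9, a steroid hydroxylase of male liver, with 737 ± 138 FPKM. Cyp2d26 at 519 ± 17.3 FPKM, Cyp3a25 at 504 ± 50.2 FPKM and Cyp2c29 at 452 ± 29.4 FPKM came next, and libraries of neighbours among these 3 overlapped. At the low end, Cyp2s1 was at 0.0377 ± 0.00882 FPKM. In single libraries Cyp2e1 supplied 33.2% to 51.5% of the members' counts and Cyp3a11 8.92% to 29.6%.

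**Figure D1:**
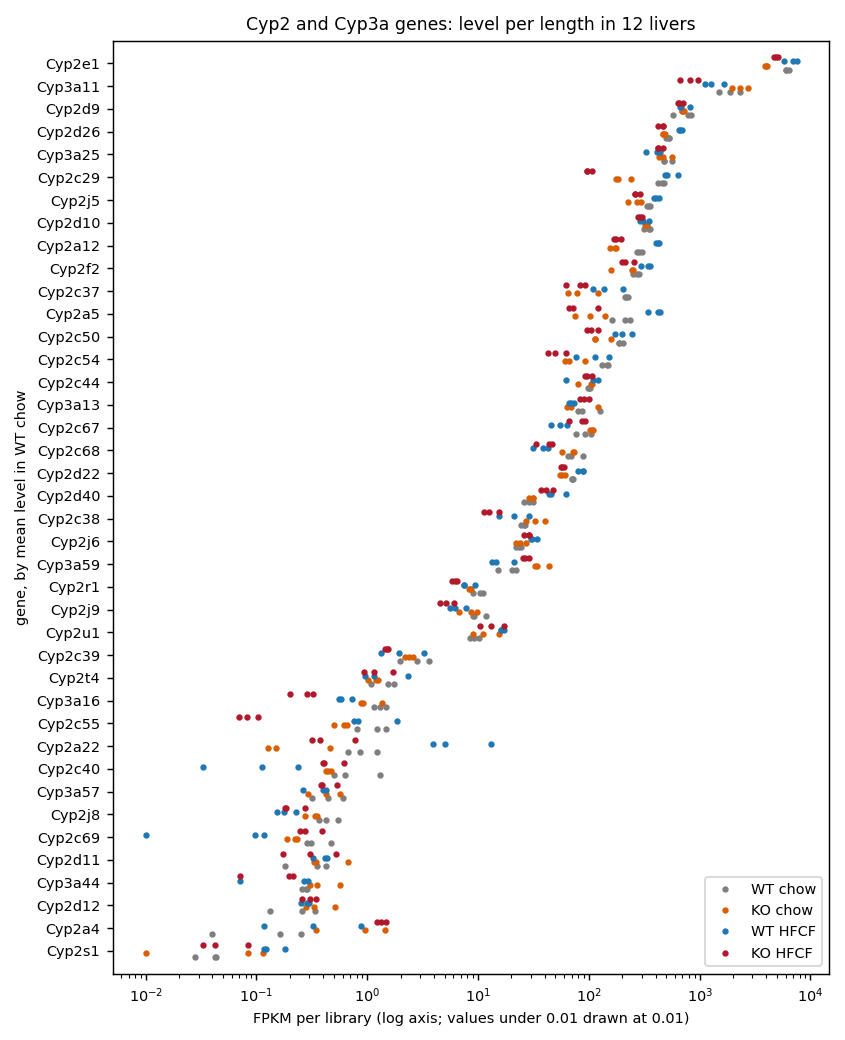
FPKM (horizontal, log axis) of each of the 40 genes (vertical, ordered by the mean in WT chow) in each of the 12 livers, coloured by group. By the mean in WT chow, Cyp2e1 is the highest and Cyp2s1 the lowest, and the group means of Cyp2c29 run from 99.9 FPKM (mean of KO HFCF) to 545 FPKM (mean of WT HFCF).

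Together the members took a smaller share of all counts in KO livers. The share was 2.42%, 2.48% and 2.6% in WT chow livers and 2.16%, 1.89% and 1.99% in KO chow livers. On HFCF it was 2.41%, 2.54% and 2.74% in WT and 1.71%, 1.75% and 1.82% in KO. The genotypes did not overlap on either diet, while the WT groups on the 2 diets did. Cyp2e1 supplied 42.2% to 48.1% of the members' counts in WT chow and 33.2% to 38.3% in KO chow livers. The chow difference thus leans on this 1 gene and does not show that the other members fell together. Cyp3a11 made up 24.3% to 29.6% of the members' counts in KO chow livers and 8.92% to 12.5% in KO HFCF livers.

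Filtering on low counts kept 35 of the 40 members among 14736 tested genes. The other 5, Cyp2c69, Cyp2d12, Cyp2j8, Cyp2s1 and Cyp3a44, had 68 to 97 counts each over all 12 libraries and were not tested. The filter needed about 0.686 CPM in at least 3 libraries, and 7 of the tested members reached it in 3 to 10 libraries: Cyp2d11 in 3, Cyp3a57 in 4, Cyp2a4 in 6, Cyp2c40, Cyp2c55 and Cyp3a16 in 9 and Cyp2a22 in 10. Such a gene can pass through the groups where it is high, so counts over the tested members are descriptions. Below, ± beside a log2 value gives the standard error of the fit, and a gene is said to have risen or fallen at an adjusted p under 0.05 (edgeR's quasi-likelihood test over 12 libraries, Benjamini-Hochberg over 14736 genes). The series' design text counts each library as 1 mouse.

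Among the 5 comparisons, that of the genotypes on HFCF called the most members, and most of the called genotype differences were lower levels in KO livers. On HFCF, 21 of 35 members were called between genotypes, 4 higher and 17 lower in KO, beside 19.1% of all tested genes called (10.6% up and 8.52% down). On chow, 11 were called, 2 higher and 9 lower in KO, beside 15.5% of all tested genes (9.72% up and 5.82% down). All 9 that fell on chow were among the 17 that fell on HFCF. The 2 comparisons share no library but share the fit's estimate of spread. The same overlap over all tested genes was not counted, so it is given as a description. The 9 members were Cyp2a5, Cyp2a12, Cyp2c29, Cyp2c37, Cyp2c50, Cyp2c54, Cyp2d22, Cyp2e1 and Cyp2j5. The members' median log2 fold change was -0.35 on HFCF and -0.28 on chow, and that of all tested genes was 0.02 and 0.

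The HFCF diet raised some members and lowered others in WT, and most calls in KO were falls. In WT, 14 members were called, 7 up and 7 down, beside 13.7% of all tested genes (7.76% up and 5.9% down). In KO, 6 were called and all 6 fell, beside 2.65% of all tested genes (1.47% up and 1.18% down). The absence of rises in KO depended on the setting: 2 members were called up with upper quartile scaling and with DESeq2, 1 with RLE scaling, the stricter filter, limma voom and the compared groups alone, and none without a filter or with the replicate block. These were Cyp2d40, Cyp2e1 or both. The median log2 fold change of the members was -0.06 in WT and -0.07 in KO, against 0 for all tested genes in each. Groups did not overlap for 18 members for the diet in WT (31.1% of all tested genes), 15 in KO (24.4%), 17 between genotypes on chow (36.1%) and 22 on HFCF (34.2%). Over the 5 comparisons, 27 of 35 members (77.1%) were called at least once and 8 never, beside 33.2% of all tested genes called at least once. Without WT HFCF replicate 1, 36 members were tested. Of these, 18 were called between genotypes on HFCF, 4 higher and 14 lower in KO, beside 2631 of all genes (2814 with all libraries). For the diet in WT 15 were called, 8 up and 7 down, beside 1303 of all genes (2013 with all libraries). Comparisons without this library's group changed too, as the fit shares its estimate of spread. For the diet in KO, 2 members were then called up and 8 down, and on chow 2 were higher and 12 lower in KO. All genes called were not counted for these 2 comparisons without that library, so the member counts are descriptions.

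**Figure D2:**
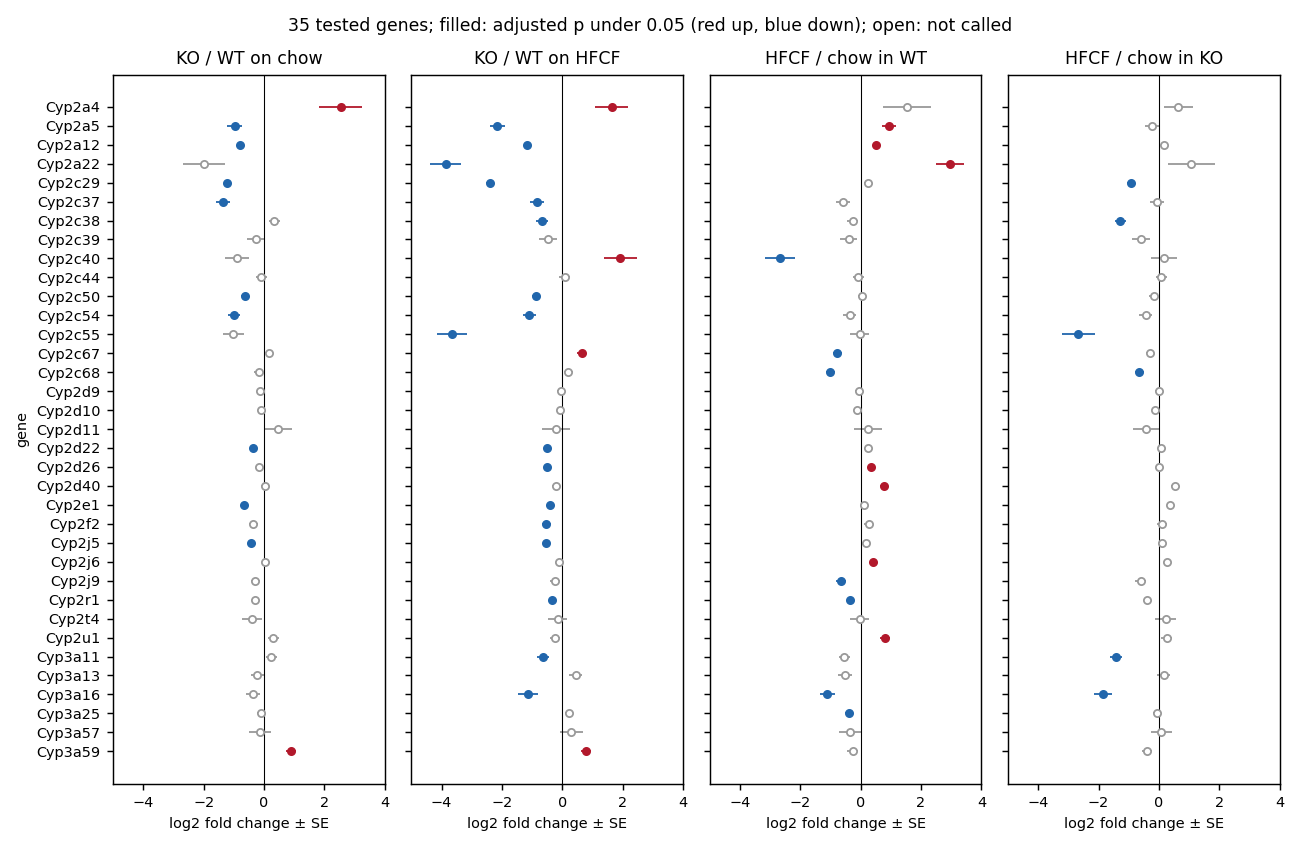
Log2 fold change ± SE (horizontal) of the 35 tested genes (vertical, by subfamily) in the 2 genotype and 2 diet comparisons. Filled points were called (red up, blue down), and on HFCF the panel of KO over WT shows 17 blue and 4 red points.

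Of the 4 Cyp2a genes, Cyp2a5 and Cyp2a12 fell in KO on both diets and Cyp2a22 on HFCF, while Cyp2a4 rose. Cyp2a5 (chromosome 7, 26835305 to 26843548, plus strand, protein coding), a coumarin hydroxylase, had 441, 494 and 343 CPM in WT and 288, 213 and 148 CPM in KO on chow. The HFCF values were 855, 718 and 885 CPM for WT and 156, 255 and 142 CPM for KO. All KO livers lay below all WT livers on the same diet, and all WT HFCF livers lay above all WT chow livers. The genotype difference, as a log2 fold change of KO over WT, was -0.98 ± 0.24 on chow (edgeR adjusted p = 0.0151) against -2.15 ± 0.25 on HFCF (edgeR adjusted p = 6.22e-05). With the diet Cyp2a5 rose in WT (0.94 ± 0.24, edgeR adjusted p = 0.0193), and in KO its value was -0.23 ± 0.24 (edgeR adjusted p = 0.656). The difference between the 2 diet effects was -1.18 ± 0.34 and was not called (edgeR adjusted p = 0.134). The rise in WT was not called without WT chow replicate 1 or 3 (edgeR adjusted p = 0.0506 and 0.0854), and the fall on chow was not called without WT chow replicate 2 or KO chow replicate 3 (0.0521 and 0.0525).

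Cyp2a12 (chromosome 7, 27029081 to 27037375), a steroid and bile acid hydroxylase, had the tightest groups of the Cyp2a genes. It had 454, 505 and 475 CPM in the WT chow group, 289, 255 and 274 CPM in the KO chow group, 703, 699 and 645 CPM in WT HFCF livers and 302, 326 and 288 CPM in KO HFCF livers. No WT liver overlapped a KO liver. The genotype difference was -0.81 ± 0.08 on chow (edgeR adjusted p = 4.76e-05) against -1.16 ± 0.08 on HFCF (edgeR adjusted p = 1.04e-06), and the rise with the diet in WT was 0.51 ± 0.08 (edgeR adjusted p = 0.00139). Its neighbour Cyp2a22 was low, at 1.93, 2.76 and 1.52 CPM in WT and 0.277, 1.04 and 0.315 CPM in KO on chow. The HFCF values were 28.5, 8.76 and 10.8 CPM for WT but 1.82, 0.839 and 0.731 CPM for KO. Cyp2a22 rose with the diet in WT by 2.96 ± 0.46 log2 units (edgeR adjusted p = 0.00114) and was lower in KO on HFCF by -3.87 ± 0.50 (edgeR adjusted p = 0.000166). Without WT HFCF replicate 1, its highest library, these became 2.24 and -3.15 (edgeR adjusted p = 0.00126 and 6.99e-05). On chow Cyp2a22 differed by -1.98 ± 0.7, with groups that did not overlap, and was not called (edgeR adjusted p = 0.0723). It was called there with DESeq2 (adjusted p = 0.0315), the 2 groups fitted alone (0.0161) and the replicate block (0.0378). Over all its annotated transcripts, 20.2% of 50-base windows also occur in Cyp2a12, whose counts were far higher and moved the same way. Their results may thus not be separate measurements.

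Cyp2a4, a testosterone hydroxylase higher in female liver, was close to the detection limit and went the other way. It had 6, 4 and 1 counts in WT chow livers and 29, 36 and 9 in KO chow livers, and 26, 8 and 3 counts in WT HFCF livers and 30, 33 and 47 in KO HFCF livers. It was higher in KO on chow by 2.54 ± 0.71 (edgeR adjusted p = 0.0288) and on HFCF by 1.63 ± 0.54 (edgeR adjusted p = 0.0488). The chow call ended without WT chow replicate 2 or 3 (0.0711 and 0.116) or KO chow replicate 1 or 2 (0.065 and 0.107), and with limma voom (0.0612). The HFCF call ended without any of 5 libraries, WT HFCF replicates 2 and 3 and KO HFCF replicates 1, 2 and 3 (edgeR adjusted p = 0.144, 0.134, 0.0879, 0.101 and 0.13), with RLE scaling (0.0508) and with no filter (0.0502), and without WT HFCF replicate 1 the value was 2.67. Over all its annotated transcripts, 36.1% of 50-base windows also occur in Cyp2a5, whose counts were far higher and moved oppositely. Reads of the pair could thus be split in a way that was not tested.

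**Figure D3:**
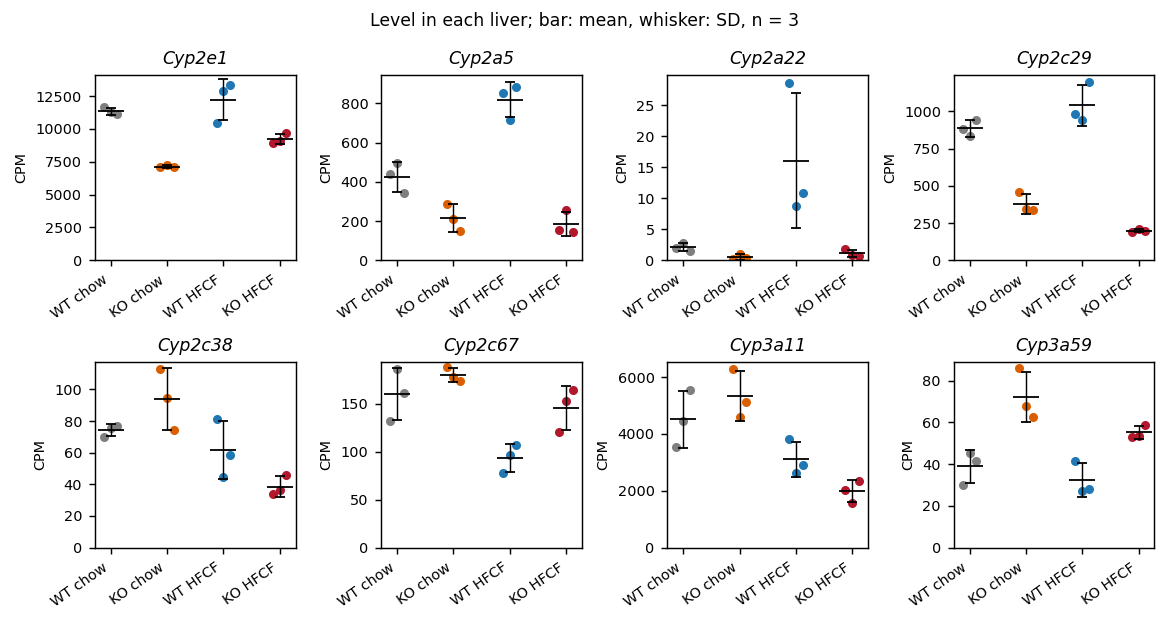
CPM (vertical, from 0) in each liver for 8 genes, with points for livers, a bar for the mean and a whisker for the SD (n = 3). Cyp2c29 lies between 193 and 209 CPM in KO HFCF livers and between 944 and 1198 CPM in WT HFCF livers, and Cyp3a59 is higher in KO than in WT on both diets.

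The Cyp2c genes, several of them epoxygenases and hydroxylases of arachidonic acid, lie on chromosome 19, most of them in 1 cluster. Of 11 tested, 4 fell in KO on chow and none rose, while on HFCF 6 fell and 2 rose. Cyp2c29 (chromosome 19, 39269405 to 39330713, plus strand, protein coding), an arachidonic acid epoxygenase, had 882, 833 and 945 CPM in WT and 459, 343 and 337 CPM in KO on chow. The HFCF values were 981, 944 and 1198 CPM for WT and 193, 209 and 194 CPM for KO. All 6 KO livers lay below all 6 WT livers, and the KO HFCF livers lay below the KO chow livers. The genotype difference was -1.22 ± 0.12 on chow (edgeR adjusted p = 4.76e-05) against -2.39 ± 0.13 on HFCF (edgeR adjusted p = 7.88e-08).

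Its neighbour Cyp2c38 was not called on chow (0.34 ± 0.19, edgeR adjusted p = 0.239). It had 69.8, 75.8 and 76.7 CPM in the WT chow group, 113, 94.8 and 74.1 CPM in the KO chow group, 81.1, 44.9 and 58.6 CPM in WT HFCF livers and 33.6, 36.4 and 45.8 CPM in KO HFCF livers. In KO it fell with the diet by -1.28 ± 0.19 (edgeR adjusted p = 0.00298). On HFCF the genotypes overlapped, at a difference of -0.67 ± 0.19 (edgeR adjusted p = 0.0251) that was not called without WT HFCF replicate 1 (-0.42, edgeR adjusted p = 0.106) or KO HFCF replicate 1 or 2 (0.0873 and 0.073). Cyp2c39, a retinoic acid hydroxylase, was at 2.32 to 6.65 CPM and was called nowhere. Cyp2c55 was low and nearly absent from KO HFCF livers, with 34, 23 and 43 counts in WT chow, 22, 19 and 15 in KO chow, 64, 22 and 25 in WT HFCF and 2, 3 and 3 in KO HFCF livers. It was lower in KO on HFCF by -3.66 ± 0.49 (edgeR adjusted p = 0.000222), or -3.11 (0.000219) without WT HFCF replicate 1, its highest library, and with the diet in KO by -2.67 ± 0.55 (edgeR adjusted p = 0.0195). That diet call ended without KO chow replicate 1 or 2 (0.0705 and 0.0562) or KO HFCF replicate 1, 2 or 3 (0.085, 0.0666 and 0.0651). On chow Cyp2c55 differed by -1.02 ± 0.35, without overlap, and was not called (edgeR adjusted p = 0.0662). It was called there with the 2 groups fitted alone (0.0341) and without WT chow replicate 2 (-1.23, 0.0472).

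Cyp2c37, Cyp2c50 and Cyp2c54, which lie side by side further along chromosome 19, fell in KO on both diets. Their transcripts share 30.1% (Cyp2c37), 18.3% (Cyp2c50) and 25.7% (Cyp2c54) of 50-base windows with another gene, mostly with one another, so their separate levels are uncertain and the 3 falls may not be separate measurements. Cyp2c37 had 415, 402 and 391 CPM in the WT chow group, 216, 143 and 113 CPM in the KO chow group, 199, 250 and 362 CPM in WT HFCF livers and 119, 172 and 158 CPM in KO HFCF livers. Its genotype difference was -1.35 ± 0.23 on chow (edgeR adjusted p = 0.002) against -0.85 ± 0.23 on HFCF (edgeR adjusted p = 0.0194), the latter not called without WT HFCF replicate 3 or KO HFCF replicate 1 (0.0844 and 0.0781). Cyp2c54 differed by -1 ± 0.21 on chow (edgeR adjusted p = 0.00716) against -1.09 ± 0.21 on HFCF (0.00306). It stood at 238 to 269 CPM in WT chow and 103 to 161 CPM in KO chow livers, and at 134 to 262 CPM in WT HFCF and 78.5 to 112 CPM in KO HFCF livers. Cyp2c50 differed by -0.64 ± 0.14 on chow (edgeR adjusted p = 0.00832) against -0.88 ± 0.14 on HFCF (0.000779), from 550 to 603 CPM against 315 to 450 CPM on chow and from 503 to 691 CPM against 295 to 357 CPM on HFCF. The genotypes did not overlap on either diet for these 3 genes. The diet effect was called for none of them in either genotype. For Cyp2c37 all WT HFCF livers lay below all WT chow livers, and without WT HFCF replicate 3 the fall in WT was called (-0.84, edgeR adjusted p = 0.0249).

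Cyp2c67, Cyp2c68 and Cyp2c40, which lie between these and Cyp2c29, were not called lower in KO on either diet. Cyp2c67 had 132, 186 and 161 CPM in the WT chow group, 188, 178 and 174 CPM in the KO chow group, 78.1, 96.1 and 107 CPM in WT HFCF livers and 120, 153 and 164 CPM in KO HFCF livers. It fell with the diet in WT (-0.77 ± 0.14, edgeR adjusted p = 0.00339) and was higher in KO than in WT on HFCF (0.64 ± 0.14, edgeR adjusted p = 0.00663). Cyp2c68 fell with the diet in WT, from 113 to 155 CPM to 53.8 to 71.6 CPM (-1.01 ± 0.15, edgeR adjusted p = 0.00101). In KO it fell from 94.5 to 125 CPM to 59.9 to 82.8 CPM (-0.65 ± 0.15, edgeR adjusted p = 0.0413), which was not called without KO chow replicate 1 or 2 (0.164 and 0.115) or KO HFCF replicate 1 or 2 (0.168 and 0.109) and with the replicate number as a block (0.057). Cyp2c40, with 18, 38 and 15 counts in WT chow and 4, 7 and 1 in WT HFCF livers, fell with the diet in WT (-2.68 ± 0.50, edgeR adjusted p = 0.00379). It was higher in KO on HFCF, with 12, 18 and 15 counts (1.92 ± 0.54, edgeR adjusted p = 0.0237), which ended without WT HFCF replicate 1 or 3 (0.0656 and 0.0766) or KO HFCF replicate 2 (0.0868). Without WT HFCF replicate 2 these values became -3.4 and 2.65. In KO chow livers Cyp2c40 had 17, 13 and 13 counts. On chow it thus lay lower in KO, by -0.91 ± 0.4 without overlap, and was not called (edgeR adjusted p = 0.146). With the diet in KO its value was 0.15 ± 0.43 (edgeR adjusted p = 0.9). Between 43.3% and 60.3% of the 50-base windows of these 3 genes' transcripts occur in another gene, mostly in each other or in Cyp2c69. The separate levels of the 3 genes are therefore uncertain. Cyp2c44, at 122 to 228 CPM and without shared windows, was called in no comparison.

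**Figure D4:**
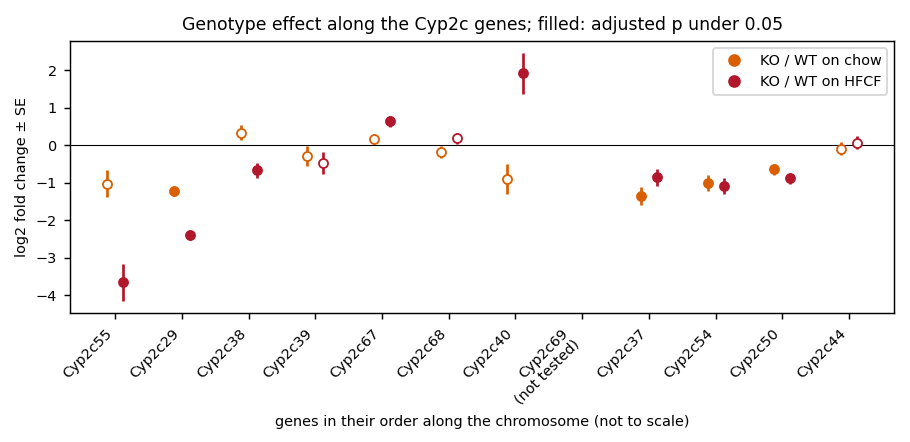
Log2 fold change ± SE of KO over WT (vertical) on chow and on HFCF for the Cyp2c genes in their order along chromosome 19 (horizontal, not to scale). Filled points were called. The genes from Cyp2c37 to Cyp2c50 lie below 0 on both diets, Cyp2c67 and Cyp2c40 lie above 0 on HFCF, and Cyp2c69 was not tested.

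Cyp2c29 was the member whose diet effect differed between genotypes. The difference between the diet effect in KO and in WT was -1.16 ± 0.17 (edgeR adjusted p = 0.0165), beside 0.794% of all tested genes called for this interaction. In KO Cyp2c29 fell with the diet by -0.93 ± 0.12 (edgeR adjusted p = 0.00135), and in WT its value was 0.23 ± 0.12 (edgeR adjusted p = 0.237). The next lowest adjusted p-values were those of Cyp2c40 (2.83 ± 0.68, edgeR adjusted p = 0.0725), Cyp2c55 (-2.64 ± 0.65, 0.0778), Cyp2c38 (-1.01 ± 0.27, 0.105), Cyp2a5 (0.134) and Cyp3a11 (-0.89 ± 0.27, 0.153). DESeq2 called 5 members for the interaction, namely Cyp2c29 and, in addition, Cyp2c40 (adjusted p = 0.0149), Cyp2c55 (0.0213), Cyp2c38 (0.0106) and Cyp3a11 (0.0239). With the replicate number as a block edgeR called Cyp2c40 in addition (0.0457), and without KO chow replicate 2 it called Cyp3a13 in addition (0.0451).

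Cyp2d9 at 957 to 1412 CPM, Cyp2d10 at 457 to 592 CPM and the barely detected Cyp2d11 were called in no comparison. Cyp2d22, the mouse gene often likened to human CYP2D6, was lower in KO on chow, at 151 to 165 CPM against 195 to 204 CPM (-0.36 ± 0.07, edgeR adjusted p = 0.00515). On HFCF it was at 159 to 170 CPM against 219 to 246 CPM (-0.51 ± 0.07, edgeR adjusted p = 0.000301). With the diet in WT its value was 0.23 ± 0.07 (edgeR adjusted p = 0.0508), with groups that did not overlap, and this was called with RLE scaling (0.0431), upper quartile scaling (0.0443), the stricter filter (0.0302), limma voom (0.0415) and DESeq2 (adjusted p = 0.0157), and also without WT HFCF replicate 1 (0.0387). Cyp2d26 had 875, 837 and 877 CPM in the WT chow group, 764, 795 and 734 CPM in the KO chow group, 1053, 1136 and 1065 CPM in WT HFCF livers and 806, 694 and 796 CPM in KO HFCF livers. It rose with the diet in WT (0.33 ± 0.08, edgeR adjusted p = 0.017) and was lower in KO on HFCF (-0.50 ± 0.08, edgeR adjusted p = 0.000812), comparisons that share the WT HFCF livers. The rise was not called without WT chow replicate 2 or WT HFCF replicate 2 (0.0527 and 0.0597). Cyp2d40 rose with the diet in WT from 30.7 to 36.5 CPM to 50.1 to 71.8 CPM (0.77 ± 0.14, edgeR adjusted p = 0.00241). In KO its value was 0.54 ± 0.13 (edgeR adjusted p = 0.0519), with groups that did not overlap, and it was called with DESeq2 (adjusted p = 0.0088), RLE scaling (0.0496), upper quartile scaling (0.0457) and the 2 groups fitted alone (0.0223).

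Cyp2e1 (chromosome 7, 140763739 to 140774987, plus strand, protein coding) was lower in KO on both diets. It had 11649, 11266 and 11141 CPM in the WT chow group and 7066, 7239 and 7079 CPM in the KO chow group, and 10435, 12904 and 13353 CPM in WT HFCF livers and 8890, 9096 and 9665 CPM in KO HFCF livers. No KO liver overlapped a WT liver, and the KO chow livers were the lowest. The genotype difference was -0.67 ± 0.10 on chow (edgeR adjusted p = 0.000539) against -0.41 ± 0.09 on HFCF (edgeR adjusted p = 0.00843). With the diet the value in KO was 0.37 ± 0.09 (edgeR adjusted p = 0.0543), called with upper quartile scaling (0.0456), limma voom (0.0443), the stricter filter (0.0458) and DESeq2 (adjusted p = 0.00235), while in WT it was 0.11 ± 0.09 (edgeR adjusted p = 0.492). Cyp2f2, a periportal enzyme known for oxidizing naphthalene, was lower in KO on HFCF, at 413 to 521 CPM against 582 to 719 CPM (-0.53 ± 0.15, edgeR adjusted p = 0.0218). That call ended without WT HFCF replicate 2 or KO HFCF replicate 1 or 3 (0.0794, 0.0624 and 0.0675).

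Of the Cyp2j genes, which make epoxides of arachidonic acid, Cyp2j5 was lower in KO on both diets. It was at 798 to 844 CPM in WT chow and 525 to 659 CPM in KO chow livers (-0.45 ± 0.09, edgeR adjusted p = 0.00697), and at 890 to 985 CPM in WT HFCF and 620 to 705 CPM in KO HFCF livers (-0.53 ± 0.09, edgeR adjusted p = 0.0016). Cyp2j6 rose with the diet in WT, from 81.5 to 88.6 CPM to 108 to 120 CPM (0.41 ± 0.08, edgeR adjusted p = 0.0056). Cyp2j9 fell with it, from 30 to 40.2 CPM to 18.5 to 24.9 CPM (-0.66 ± 0.17, edgeR adjusted p = 0.019), which was not called without WT chow replicate 3 or WT HFCF replicate 1 or 2 (0.092, 0.0737 and 0.0559). In KO the diet values were 0.27 ± 0.08 for Cyp2j6 and -0.61 ± 0.17 for Cyp2j9 and were not called (edgeR adjusted p = 0.0901 and 0.069), though in each case the groups did not overlap, and the fall of Cyp2j9 in KO was called with DESeq2 (adjusted p = 0.018) and without KO chow replicate 3 (-0.76, edgeR adjusted p = 0.0285).

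Cyp2r1 and Cyp2u1 are enzymes with physiological substrates, vitamin D for the first and long-chain fatty acids for the second. Cyp2r1 was low, at 15 to 17.9 CPM in WT chow, 13.3 to 13.6 CPM in KO chow, 12.1 to 14.9 CPM in WT HFCF and 9.84 to 10.6 CPM in KO HFCF livers. It fell with the diet in WT (-0.36 ± 0.10, edgeR adjusted p = 0.0383) and was lower in KO on HFCF (-0.35 ± 0.11, edgeR adjusted p = 0.0354). The diet call ended without WT chow replicate 1 or 3 (0.151 and 0.117), without WT HFCF replicate 1 or 2 (0.129 and 0.118), with DESeq2 (0.0692), with the replicate block (0.0544) and with the 2 groups fitted alone (0.111). The genotype call ended without WT HFCF replicate 3 (0.131) or KO HFCF replicate 1, 2 or 3 (0.0651, 0.0516 and 0.0832), with upper quartile scaling (0.0505), with the replicate block (0.0518) and with the 2 groups fitted alone (0.0716). The other 2 Cyp2r1 values were of like size, without overlap and not called. They were -0.39 ± 0.11 for the diet in KO (edgeR adjusted p = 0.0671) and -0.31 ± 0.1 for the genotype on chow (0.0568). The former was called with the 2 groups fitted alone (0.0455), the latter without WT chow replicate 2 (0.035). Cyp2u1 rose with the diet in WT from 19.8 to 23.6 CPM to 37.2 to 39.1 CPM (0.80 ± 0.17, edgeR adjusted p = 0.00832). Cyp2t4, at 1.54 to 3.67 CPM, was called in no comparison.

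Among the Cyp3a genes, the abundant Cyp3a11 and the minor Cyp3a59 differed. Cyp3a11 (chromosome 5, 145854426 to 145879964, minus strand, protein coding) had 3538, 4462 and 5543 CPM in WT and 6304, 4594 and 5137 CPM in KO on chow. The HFCF values were 3809, 2627 and 2892 CPM for WT and 2012, 1576 and 2353 CPM for KO. The chow groups overlapped, and each KO HFCF liver lay below each liver of the other groups. Between genotypes the difference was 0.24 ± 0.19 on chow (edgeR adjusted p = 0.421) against -0.65 ± 0.19 on HFCF (edgeR adjusted p = 0.0286), the latter not called without WT HFCF replicate 1 (-0.48, 0.102) or KO HFCF replicate 1 or 2 (0.0621 and 0.0966). With the diet the value was -1.43 ± 0.19 in KO (edgeR adjusted p = 0.00141) and -0.54 ± 0.19 in WT (edgeR adjusted p = 0.0787), and the latter was called with DESeq2 (adjusted p = 0.0306) and without WT HFCF replicate 1 (-0.71, edgeR adjusted p = 0.0384).

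Cyp3a59 (chromosome 5, 146079257 to 146113287, plus strand, protein coding) was higher in KO on both diets. On chow it was at 30.2, 45.2 and 41.3 CPM for WT and 86, 67.9 and 62.8 CPM for KO, and on HFCF at 41.7, 27.1 and 28.3 CPM for WT and 53.1, 53.7 and 59 CPM for KO. No KO liver overlapped a WT liver. The difference was 0.89 ± 0.17 on chow (edgeR adjusted p = 0.00408) against 0.77 ± 0.17 on HFCF (edgeR adjusted p = 0.00719). Cyp3a25, the gene with the near-identical promoter shown above, was at 504 ± 50.2 FPKM in WT chow livers against 19.2 ± 3.67 FPKM of Cyp3a59, and was not called between genotypes, at -0.10 ± 0.12 on chow and 0.22 ± 0.12 on HFCF (edgeR adjusted p = 0.631 and 0.253). Over all annotated Cyp3a59 transcripts, 26.8% of 50-base windows also occur in Cyp3a25. Cyp3a25 fell with the diet in WT, from 991 to 1188 CPM to 679 to 897 CPM (-0.40 ± 0.12, edgeR adjusted p = 0.0467). This call ended with RLE scaling (0.0521), upper quartile scaling (0.0502), the stricter filter (0.0507), the replicate block (0.0556) and the 2 groups fitted alone (0.0782). It also ended without WT chow replicate 1, 2 or 3 (0.0781, 0.0812 and 0.176) or WT HFCF replicate 2 or 3 (0.161 and 0.0625).

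Cyp3a16, a fetal form of the family, had 36, 29 and 33 counts in WT chow and 28, 34 and 23 in KO chow livers, and 22, 14 and 15 counts in WT HFCF and 8, 5 and 9 in KO HFCF livers. It fell with the diet in WT (-1.10 ± 0.25, edgeR adjusted p = 0.0117) and in KO (-1.86 ± 0.30, edgeR adjusted p = 0.00437), and the HFCF livers lay below the chow livers in each genotype. It was lower in KO on HFCF (-1.14 ± 0.32, edgeR adjusted p = 0.0232). The fall in WT was not called without WT chow replicate 1 (0.0515). The genotype call ended without WT HFCF replicate 1 or KO HFCF replicate 2 or 3 (0.0792, 0.0786 and 0.0526) and with DESeq2 (adjusted p = 0.0509). Cyp3a13, at 180 to 373 CPM, and Cyp3a57, at 0.417 to 0.968 CPM, were called in no comparison. For Cyp3a13 the genotype difference was called on chow without KO chow replicate 2 (-0.61 in place of -0.23, edgeR adjusted p = 0.0307) and on HFCF with the 2 groups fitted alone (0.43, 0.0143).

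The diet effects in WT and KO, which share no library, had the same sign for 26 of the 35 tested members, and 15 of these were lower on HFCF in both genotypes. Across the 35 genes the log2 fold changes had a Pearson correlation of 0.42 and a Spearman correlation of 0.55. These are given as a description because paralogs share sequence and genes are not independent replicates. Neither the share of equal signs nor the correlations were computed over all tested genes. Whether the agreement is particular to these members can therefore not be told. Cyp2a5, Cyp2c29 and Cyp2c40 were among those with opposite signs, and of these the difference was called for Cyp2c29, as given above.

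**Figure D5:**
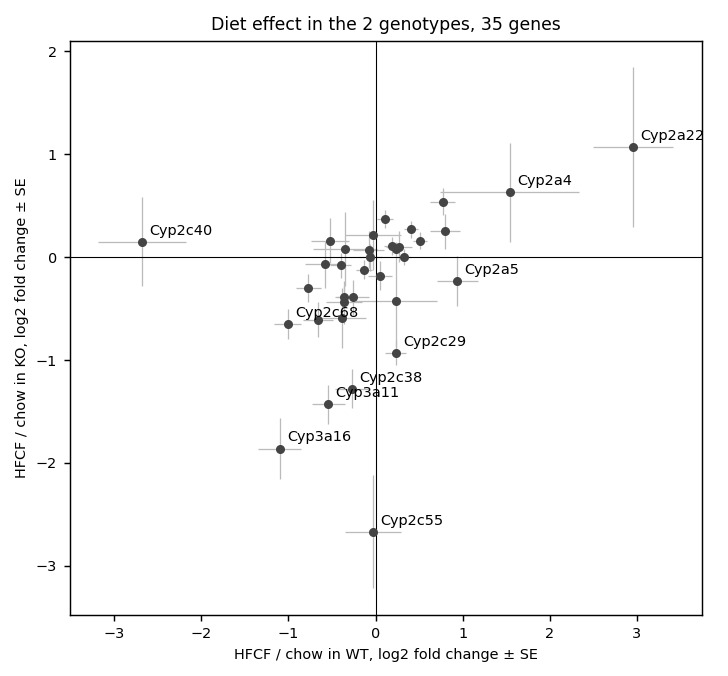
Log2 fold change ± SE of HFCF over chow in WT (horizontal) and in KO (vertical) for the 35 tested genes. Cyp3a16, Cyp2c68, Cyp3a11 and Cyp2c38 lie at the lower left, while Cyp2a22 lies far to the right at 2.96 in WT and 1.07 in KO.

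Genes listed as partners of these enzymes or for heme were also called in part. Of 16 tested genes for electron transfer and for heme synthesis and breakdown, 6 were lower and 1 higher in KO on HFCF (4 and 2 without WT HFCF replicate 1) and 4 lower on chow. With the diet, 4 rose and 1 fell in WT (3 and 1 without WT HFCF replicate 1), and 1 fell in KO. The reductase gene Por was at 365 to 765 CPM and was called in none of the 5 comparisons. Alas1, which encodes the first enzyme of heme synthesis, rose with the diet in WT from 362, 574 and 217 CPM to 1411, 1864 and 1044 CPM (1.91 ± 0.31, edgeR adjusted p = 0.00165). In KO its values were 364, 554 and 703 CPM on chow and 1223, 1111 and 1410 CPM on HFCF (1.21 ± 0.31, edgeR adjusted p = 0.0543), again without overlap, and this was called with DESeq2 (adjusted p = 0.0328), limma voom (0.0486), the replicate block (0.0498), upper quartile scaling (0.0498) and the 2 groups fitted alone (0.0113), and without KO chow replicate 3 (0.0485). Lower in KO on HFCF were Cyb5b, a gene of the cytochrome b5 family (-0.68 ± 0.09, edgeR adjusted p = 0.000281), and the cytochrome b5 reductase gene Cyb5r3 (-0.78 ± 0.15, 0.00333). Without WT HFCF replicate 1 the Cyb5r3 value was -0.57 (edgeR adjusted p = 0.0074). So were the P450-binding membrane protein gene Pgrmc1 (-0.50 ± 0.08, edgeR adjusted p = 0.0012) and the heme synthesis gene Alad (-0.51 ± 0.07, 0.000167). Cyb5a, the other cytochrome b5 gene of the list, was not analysed here, and the Cyb5b values do not stand for it.

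Of 26 genes for xenobiotic receptors and liver transcription factors, 4 were lower and 1 higher in KO on HFCF, and 2 were lower and 1 higher on chow. These shares, 19.2% and 11.5%, lie at and below the 19.1% and 15.5% of all tested genes. With the diet 5 rose and 2 fell in WT (5 and 0 without WT HFCF replicate 1), and 2 fell in KO. The CAR gene Nr1i3 stood at 490, 634 and 805 CPM in WT HFCF and 387, 351 and 391 CPM in KO HFCF livers (-0.77 ± 0.16, edgeR adjusted p = 0.00362). On chow it stood at 493 to 560 CPM in WT and 348 to 480 CPM in KO, a difference of -0.41 ± 0.16 that was not called (edgeR adjusted p = 0.091) except with DESeq2 (adjusted p = 0.0447), with the 2 groups fitted alone (0.0427) and without KO chow replicate 1 (0.0488). The PXR gene Nr1i2 rose with the diet in WT, from 99 to 103 CPM to 123 to 142 CPM (0.42 ± 0.09, edgeR adjusted p = 0.00704), and was not called between genotypes on chow or on HFCF (edgeR adjusted p = 0.536 and 0.563).

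Other gene groups moved with the same comparisons. Of 23 acute phase genes, made by hepatocytes in inflammation, 17 were higher and none lower in KO on HFCF, 8 were higher in KO on chow and 10 rose with the diet in KO. Their summed level was 23001 to 30530 CPM in WT chow, 24691 to 37843 CPM in KO chow, 19061 to 21787 CPM in WT HFCF and 44090 to 49699 CPM in KO HFCF livers. Of 13 Kupffer cell and macrophage markers, 8 were higher in KO on chow and 7 on HFCF (13 without WT HFCF replicate 1, whose sum of 706 CPM was the highest of its group), with sums of 355 to 401 CPM and 599 to 626 CPM in WT and KO on chow and 331 to 706 CPM and 805 to 866 CPM on HFCF. Of 9 B and plasma cell markers, 8 were higher in KO on chow and 5 on HFCF, and hepatocytes also make 1 of them, Sdc1. Without Sdc1, a choice made after its values were seen, the other 8 summed to 8.21 to 12 CPM in WT and 819 to 967 CPM in KO on chow, and to 6.57 to 11.8 CPM and 321 to 386 CPM on HFCF. Of 6 tested T and NK cell markers, 4 and 5 were higher in KO, with sums over 10 genes of 2.12 to 3.86 CPM and 6.49 to 11.9 CPM on chow and 2.38 to 3.58 CPM and 7.99 to 13.3 CPM on HFCF. Of 10 stellate cell and fibroblast markers, 6 rose with the diet in WT (3 without WT HFCF replicate 1), from a sum of 540 to 660 CPM to 738 to 892 CPM, and 5 were higher in KO on chow, at 795 to 810 CPM. Adgre1, Ncr1 and Mzb1 of these lists were not analysed here.

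Of 8 adipocyte markers, Cidec, Cfd, Fabp4 and Car3 were in the table, and Adipoq, Plin1, Lep and Retn were not analysed here. All 4 rose with the diet in WT (3 without WT HFCF replicate 1), and 3 were lower in KO on HFCF and 1 on chow. Their sum was 802 to 1182 CPM in WT chow, 188 to 572 CPM in KO chow, 4339 to 5373 CPM in WT HFCF and 369 to 516 CPM in KO HFCF livers, most of it from Car3, which hepatocytes also make (4107 to 5001 CPM in WT HFCF and 342 to 492 CPM in KO HFCF livers). Among the members, 4 rose with the diet in WT and were lower in KO on HFCF, namely Cyp2a5, Cyp2a12, Cyp2a22 and Cyp2d26. Cyp2c40 and Cyp2c67 were called the other way in both. These 2 comparisons share the WT HFCF livers and are not independent. Of 10 endothelial markers, none was called on chow or with the diet, and 1 was higher and 1 lower in KO on HFCF (1 and 0 without WT HFCF replicate 1). Of 6 cholangiocyte markers, 1 was higher in KO on chow and 1 rose with the diet in WT (0 without WT HFCF replicate 1).

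Hepatocyte markers moved in both directions on HFCF, with 4 of 19 higher and 3 lower in KO (2 and 3 without WT HFCF replicate 1), and their sum was 79094 to 87398 CPM in WT HFCF and 94901 to 100756 CPM in KO HFCF livers. Of 18 pericentral genes outside the Cyp2 and Cyp3a families, 6 were lower and 1 higher in KO on HFCF (7 and 2 without WT HFCF replicate 1), 4 were lower and 4 higher on chow, and 9 rose and 2 fell with the diet in WT (5 and 2 without WT HFCF replicate 1). Of 14 periportal genes, 5 were higher and 1 lower in KO on HFCF, 3 were higher and 7 lower on chow, and 9 fell and none rose with the diet in WT. Of 18 genes known to be higher in male liver, 9 were higher and 1 lower in KO on HFCF (8 and 2 without WT HFCF replicate 1) and 5 higher and 2 lower on chow. Of 11 tested genes known to be higher in female liver, none was higher and 3 were lower in KO on HFCF (1 and 2 without WT HFCF replicate 1), and 2 were higher and 2 lower on chow. Of the 3 Cyp1 genes, 1 was higher in KO on each diet, 1 more being lower on HFCF without WT HFCF replicate 1, and of 10 pancreas and kidney markers 1 was tested and not called. The part of these groups in the P450 results was not tested.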

How the data were processed

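Total liver RNA from 12 mice was depleted of ribosomal RNA and sequenced from stranded libraries, per the labels' protocols. The authors deposited a table of whole-number read counts and FPKM values per gene and library, per the file headers. Each deposited FPKM value was the count over gene length and a constant of the library. Per the submitters' processing notes, reads were placed on mm10. How they were aligned and counted, with which strand setting and annotation, and how reads shared by paralogs were treated, is not given in the sources used here.

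Genes were kept by filterByExpr (minimum count 10, minimum total 15). After TMM scaling, counts were tested by quasi-likelihood in edgeR 4.0.16 (R 4.3.3), with a mean per group. Benjamini-Hochberg adjustment ran over all 14736 tested genes per comparison, with calls under 0.05. The script was tested on simulated data. FPKM served only to compare levels between genes. Every member called in a comparison is named with its values, and other genes only from 18 lists, at most the 4 with the lowest adjusted p per comparison, and Nr0b2, Por, Nr1i2, Nr1i3, Xist and Ddx3y. The members and lists were chosen with earlier results of these data known. Gene positions and transcripts are from GENCODE M21 on GRCm38, matched by identifier for 38 of 40 members.

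The alternatives tried were upper quartile and RLE scaling, a minimum count of 50 or no filter, DESeq2 1.42.0, limma 3.58.1 (voom), the replicate number as a block, a fit of the 2 groups compared, and each library left out in turn. A library was left out for the interaction and for the comparisons of its own group. Without WT HFCF replicate 1, calls were also counted in the other comparisons. Plots used Python 3.11.15, matplotlib 3.10.9 and pandas 2.3.3.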

Additional observations from a re-analysis of the deposited data

Results flagged for a closer look

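The diet effect on Cyp2c29 differed between genotypes by a test of the difference itself, the interaction term of the edgeR fit, at a log2 value of -1.16 ± 0.17 (diet effect in KO minus that in WT, edgeR adjusted p = 0.0165). All 3 KO HFCF livers lay below all 3 KO chow livers, while the WT groups overlapped. No other tested member had a called interaction in that fit. In each alternative run for the interaction Cyp2c29 was called.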

How the results depend on the processing

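Of 53 called results of single members, 35 were called under every alternative run, 18 were not called under at least 1, and 0 changed sign. The number of members called moved for the interaction, from 1 to 5 with DESeq2 and to 2 with the replicate number as a block, and it ranged from 1 to 2 when single libraries were left out. Leaving out 1 library of the compared groups gave 11 to 15 members for the diet in WT, 4 to 7 for the diet in KO, 10 to 11 between genotypes on chow and 15 to 20 on HFCF. WT HFCF replicate 1 stands in neither group of the diet in KO or of the genotypes on chow. Without it, 2 of 36 tested members were called up and 8 down for the diet in KO, and 2 higher and 12 lower in KO on chow. All genes called were not counted there.

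Over all genes, the diet in KO called 390, 656 with DESeq2 and 603 with the compared groups alone, and the interaction called 117, or 344 with DESeq2. Without 1 library of the compared groups at a time, all genes called ranged from 1100 to 2264 for the diet in WT, 157 to 336 for the diet in KO, 1152 to 1691 between genotypes on chow, 2042 to 2631 on HFCF and 11 to 136 for the interaction.

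Replicate numbers were not taken to pair the samples, since the correlations of same-numbered deviations were -0.15 to 0.17 and no comparison had every pair above 0.1. With the replicate block, edgeR called 12 members for the diet in WT, 5 for the diet in KO, 12 between genotypes on chow and 20 on HFCF. The block ended the calls of Cyp3a25 and Cyp2r1 for the diet in WT, of Cyp2c68 for the diet in KO and of Cyp2r1 on HFCF, and added Cyp2a22 on chow (edgeR adjusted p = 0.0378). Low counts limit Cyp2a4, Cyp2c40, Cyp2c55 and Cyp3a16, and shared sequence limits the 15 members with at least 20% of 50-base windows in another gene. The causes of these changes were not tested.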
